A study of Mus musculus with 4 samples.

Results

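Sox, Fox and T-box transcription factors were described in thymospheres, the free-floating colonies that grow from digested thymus. Members were the genes whose RefSeq symbol is Sox or Tbx with a number, or Fox with a letter from a to s and a number, with Foxn1 and Tbx1 left out of the set. The arrays carried 95 probes for 74 such genes (19 Sox, 43 Fox and 12 T-box) among 21154 genes with a symbol. A single slide with 4 Agilent arrays in 1 colour held the samples. Adult arrays 1 and 2 held spheres from C57Bl6/N mice aged 5 to 6 weeks, and embryonic arrays 1 and 2 held spheres from C57Bl6/N thymus of embryonic day 14.5. No allele or transgene is named for either group. All 4 cultures had the same medium, with EGF, bFGF, insulin, hydrocortisone and B27, which was renewed on day 5, and spheres were lysed whole after 7 days. The labels do not say how many animals gave each culture, and they mention biological as well as technical replicates, so a p-value here covers the spread from array to array, which may be technical. A sphere of this kind can hold several cell types, and in such bulk RNA fewer cells of a type and less RNA per cell cannot be told apart.

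All members bind DNA through a family domain: the HMG box of Sox proteins, the forkhead domain of Fox proteins and the T-box. Sox and forkhead factors often open or bend DNA for other factors, whereas T-box factors include strong repressors as well as activators. In the thymus these families are known from the epithelium, from the mesenchyme and vessels around it, and from T cell programmes such as those of Foxp3 and Tbx21.

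Promoter sequence is shown for 5 members that changed between the groups, to give the DNA of the start sites behind the measurements below. Foxa1, Foxc1 and Sox4 were called higher and Foxj2 and Tbx21 were called lower in embryonic spheres. Each run holds the 250 bases before the transcription start, 5′ to 3′ on the gene's strand, from RefSeq for build GRCm38.p6. The windows are chr12:57546112-57546361 for Foxa1, chr13:28953700-28953949 for Sox4 and chr11:97115332-97115581 for Tbx21, all on the minus strand, and chr13:31806396-31806645 for Foxc1 and chr6:122819934-122820183 for Foxj2, both on the plus strand. Capitals mark a match to the forkhead motif TGTTTAC or its reverse complement, and only the Foxa1 window of these 5 held one.
Foxa1: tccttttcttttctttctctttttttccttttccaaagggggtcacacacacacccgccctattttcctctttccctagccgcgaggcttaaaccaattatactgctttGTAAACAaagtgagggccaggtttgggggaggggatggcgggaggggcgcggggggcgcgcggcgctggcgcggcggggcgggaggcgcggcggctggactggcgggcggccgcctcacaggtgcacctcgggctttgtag
Foxc1: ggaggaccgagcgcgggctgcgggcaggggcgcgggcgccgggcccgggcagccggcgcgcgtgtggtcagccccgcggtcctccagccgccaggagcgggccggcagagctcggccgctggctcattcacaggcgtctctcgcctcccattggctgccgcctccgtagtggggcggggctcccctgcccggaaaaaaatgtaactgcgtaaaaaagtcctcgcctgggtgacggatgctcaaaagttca
Sox4: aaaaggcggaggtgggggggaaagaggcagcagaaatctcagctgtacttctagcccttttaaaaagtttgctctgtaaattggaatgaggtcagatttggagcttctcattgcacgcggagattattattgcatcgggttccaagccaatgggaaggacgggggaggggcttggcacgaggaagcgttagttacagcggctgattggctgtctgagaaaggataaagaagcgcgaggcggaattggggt
Foxj2: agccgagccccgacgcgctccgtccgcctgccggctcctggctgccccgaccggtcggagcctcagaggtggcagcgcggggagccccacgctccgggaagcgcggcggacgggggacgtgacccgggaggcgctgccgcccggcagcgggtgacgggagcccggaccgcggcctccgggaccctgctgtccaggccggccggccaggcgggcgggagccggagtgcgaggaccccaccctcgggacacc
Tbx21: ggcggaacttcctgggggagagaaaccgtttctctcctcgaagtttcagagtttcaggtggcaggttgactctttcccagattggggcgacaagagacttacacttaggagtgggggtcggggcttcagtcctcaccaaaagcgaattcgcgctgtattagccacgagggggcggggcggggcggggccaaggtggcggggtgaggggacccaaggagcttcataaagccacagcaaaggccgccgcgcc

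The RefSeq promoter table held 48 of the 74 members, with 60 windows of 250 bases. Their median GC content was 59.8%, against 52.4% over all 32851 windows, and the median number of CpG steps was 14 against 6. By call, the median GC content was 62% for the 7 matched members called higher, 60.8% for the 3 called lower and 58.8% over the 33 windows of members that were not tested. On either strand, TGTTTAC stood in 2 of the 60 windows (those of Foxa1 and Sox12) and in 3.17% of all windows. The Sox motif AACAAT stood in 3 of the 60 and in 9.42% of all. The T-box motif AGGTGTGA stood in none of the 60 and in 1.12% of all, which says only that these letters are not in these windows. The 3 motifs do not hold one another.

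Signals are given as log2 of the processed intensity minus log2 of that array's 75th percentile, so 0 is that percentile. A probe counts as detected where Feature Extraction marked it as well above background. The 4 arrays differed in this: 71.6% and 49.6% of spots were detected on adult arrays 1 and 2, and 48.3% and 35.7% on embryonic arrays 1 and 2. Of 1376 genes for olfactory, vomeronasal and taste receptors and their relatives, known from sensory tissue, 53.5%, 24.9%, 6.69% and 2.47% were detected on these arrays in that order. Adult array 1 thus stood apart, and adult array 2 had 2756 outlier-marked spots against 95 to 185 on the other arrays, which left 2474 of 55681 probes without a value there. The part of these differences in the results below was not tested.

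Detection of the members followed the arrays. Adult array 1 detected 59 of 74 members (79.7%), adult array 2 detected 36 (48.6%), embryonic array 1 detected 41 (55.4%) and embryonic array 2 detected 31 (41.9%). The shares over all genes with a symbol were 81.4%, 59.1%, 63.5% and 52.3%. The members' share was thus the lower one on each array. The T-box genes were detected at 83.3%, 66.7%, 58.3% and 41.7%, and the Sox genes at 73.7%, 36.8%, 42.1% and 31.6%. The plot of detection shares sets the families beside all genes and the sensory receptors.

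**Figure D1:**
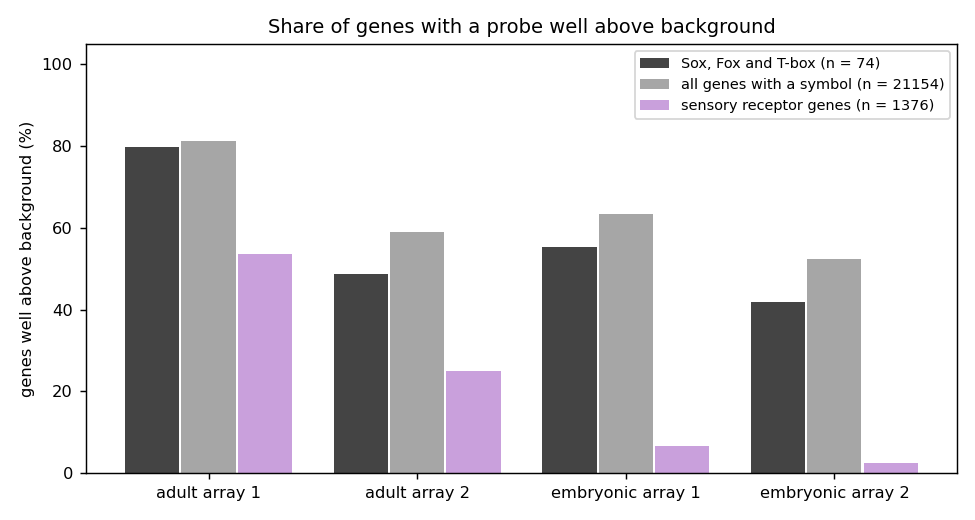
Share of genes well above background (percent, y axis) on each of the 4 arrays (x axis), for the Sox, Fox and T-box members, all genes with a symbol and the sensory receptor genes. The members run from 79.7% on adult array 1 to 41.9% on embryonic array 2, below all genes on each array.

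A gene was tested where its probe was detected on both arrays of at least 1 group, which left 39 members: 7 Sox, 25 Fox and 7 T-box. Embryonic minus adult was fitted with limma over 13667 genes, and a gene was called at a Benjamini-Hochberg adjusted p under 0.05. Of the 39 tested members, 13 were called higher in embryonic spheres (33.3%), against 36.1% of all tested genes. Another 5 were called lower (12.8%), against 17.5% of all, so 18 members were called where 53.6% of all tested genes were. The groups did not overlap for 32 of the 39, against 84.0% of all. These shares lie near the background. The fitted difference of all 18 was over 2-fold. With these standard errors the threshold nearly requires such a size, and Sox13 missed it at 0.87 (adjusted p = 0.0594). The share over all called genes was not counted.

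The median log2 difference was 0.50 over the tested members and 0.79 over all tested genes. It was 0.50 for Sox, 0.63 for Fox and -0.52 for T-box genes. Centring each array on its tested genes lowers every difference by 0.66. Then 8 members were called higher (among them Foxa1, Foxc1, Foxk1, Foxo1, Foxq1, Sox4 and Tbx2), with 7.65% of all tested genes, and 7 were called lower (Foxj1, Foxj2, Foxr1, Foxs1, Sox7, Sox21 and Tbx10), with 20.3% of all. Normexp background correction gave 11 members higher and 2 lower, with 2529 and 820 of 13667 genes. Centring on all probes gave 26 members higher and 3 lower, with 9831 and 1695 of these genes. Of the 27 members detected on all 4 arrays, the fit over all 13667 genes called 11 higher (40.7%) and none lower. Of the 9602 genes so detected, 43.8% were higher and 2.36% were lower. The median difference was 0.63 over these members, against 0.97 over those genes. A fit of only the genes detected on all 4 arrays called 12 members higher and 2 lower, with 5393 and 329 of 9626 genes. None of the 18 called members changed direction in any alternative run. Leaving out either adult array ended all 18 calls, and no tested gene was called then, member or not. The lone adult array is there assumed to vary like the embryonic pair.

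**Figure D2:**
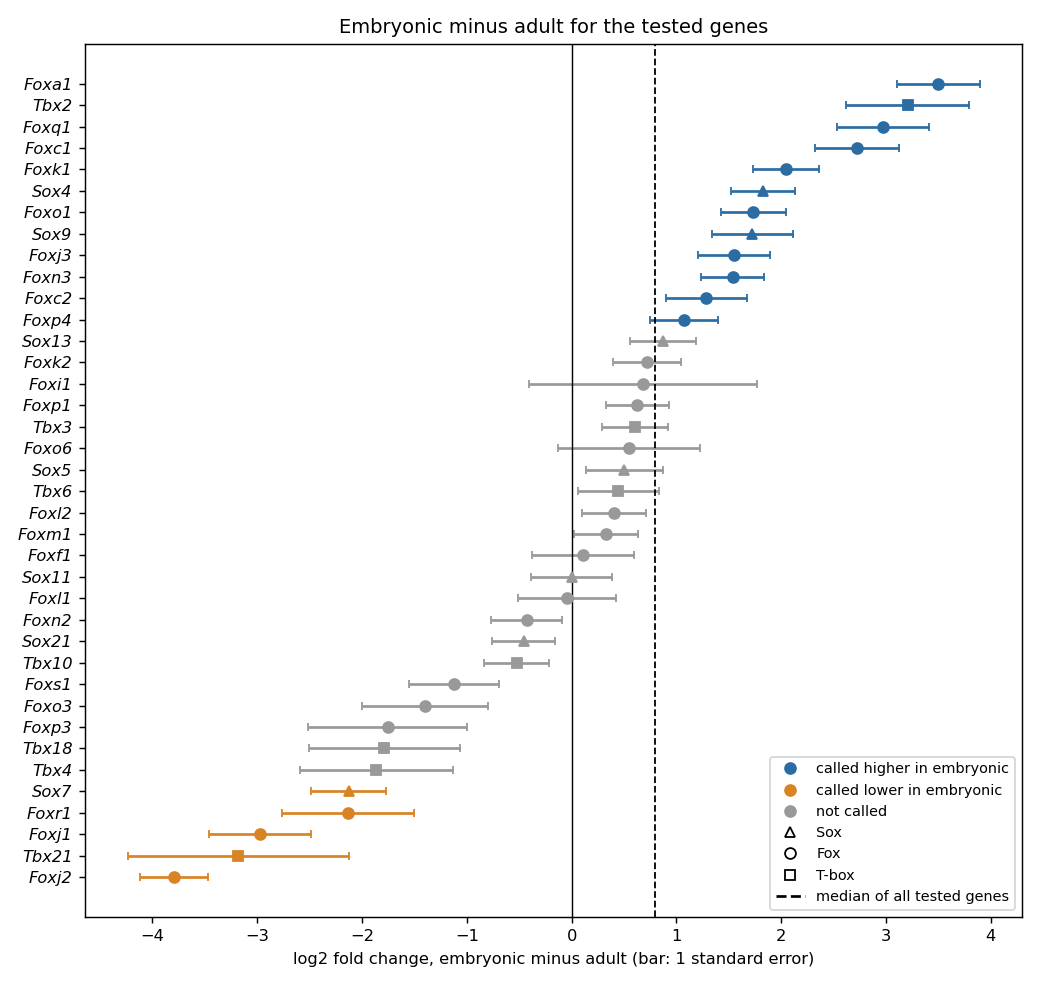
Log2 difference, embryonic minus adult (x axis), of 38 tested Sox, Fox and T-box genes (y axis), with bars for 1 standard error of the limma fit and the median of all 13667 tested genes as a line. Differences run from -3.80 for Foxj2 to 3.50 for Foxa1, with 12 of the genes drawn called higher and 5 lower.

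The genes called higher included forkhead genes that differed by more than 6-fold. Foxa1, a pioneer factor that opens chromatin in endodermal epithelia, stood at -1.71 and -2.53 on the adult arrays and at 1.52 and 1.24 on the embryonic ones. Its difference was 3.50 (SE 0.40, adjusted p = 0.00728), or 11.3-fold, and it was detected on 1 of the 2 adult arrays. Foxq1, a forkhead factor of epithelia and hair, stood at -3.04 and -2.68 in adult and -0.40 and 0.62 in embryonic spheres. Its adult signals were not well above background, so the difference is a bound, at least 7.79-fold (fitted difference 2.97, SE 0.44, adjusted p = 0.00908). Such a bound raises each dim array to at least the lowest signal of any detected probe before the group means are compared. Undetected probes can stand above that level, as Foxq1 did on adult array 1 (-3.04 against -3.30). A stricter level would thus give a smaller bound. Both embryonic arrays were high for each of these genes, and no adult value reached an embryonic one.

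Foxc1 and Foxc2 act in head and vessel mesenchyme. Foxc1 stood at -1.40 and -1.33 in adult and 0.91 and 1.80 in embryonic spheres, a difference of 2.72 (SE 0.40, adjusted p = 0.00905) or 6.58-fold. Foxc2 rose less, from -0.69 and -0.56 to 0.26 and 1.06, a difference of 1.29 (SE 0.39, adjusted p = 0.0375). The groups did not overlap for either gene. The Foxc2 call ended without embryonic array 2 (adjusted p = 0.106), with normexp, with quantile normalisation, with centring on the tested genes and without a filter on dim probes.

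Foxo1 is a target of insulin signalling, which keeps its protein out of the nucleus. It stood at -0.08 and -0.36 in adult and 1.42 and 1.60 in embryonic spheres, a difference of 1.73 (SE 0.31, adjusted p = 0.0121) or 3.33-fold. Its other tested probe gave 1.71. Foxo3, a relative under the same control, gave -1.40 (adjusted p = 0.0939), from -0.61 and -1.69 to -1.88 and -3.23, and Foxo6, best known from brain, gave 0.54 (adjusted p = 0.506) with embryonic signals of -0.70 and 1.32. The embryonic arrays of Foxo6 lie on either side of its adult ones. Without embryonic array 1, Foxo3 and Foxo6 were called as well, and whether Foxo1 differed from Foxo3 was not tested.

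Foxk1, a repressor of autophagy genes with a part in glycolysis, stood at -2.04 and -1.72 in adult and 0.20 and 0.14 in embryonic spheres. The difference was 2.05 (SE 0.31, adjusted p = 0.00943), or 4.13-fold. Its close relative Foxk2 gave 0.72 (adjusted p = 0.106), with all 4 arrays detected and embryonic values of 1.16 and 1.05 above adult ones of 0.18 and 0.59. Foxn3, a repressor linked to the cell-cycle checkpoint, stood at -0.73 and -0.77 in adult and 0.78 and 0.80 in embryonic spheres, a difference of 1.53 (SE 0.30, adjusted p = 0.0135). Replicates of Foxk1 and Foxn3 lay far closer to each other than the groups did. Foxj3, an activator of Mef2c in muscle, rose from 1.60 and 1.82 to 3.01 and 3.52, a difference of 1.55 (SE 0.34, adjusted p = 0.0174). Without the filter on dim probes and with centring on the tested genes, the calls of Foxn3 and Foxj3 ended (adjusted p of 0.0584 to 0.108). That of Foxj3 ended also with quantile normalisation (0.73, adjusted p = 0.179) and in the deposited value table (0.72, adjusted p = 0.103).

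Foxp1 to Foxp4 are a subfamily of repressors. Foxp4 stood at 1.20 and 1.12 in adult and 2.01 and 2.45 in embryonic spheres, a difference of 1.07 (SE 0.33, adjusted p = 0.0392), the smallest among the 18 called members. Its other tested probe gave 1.5. The call ended without embryonic array 2 (adjusted p = 0.118), with quantile normalisation, with centring on the tested genes, in the deposited value table and without the filter. Foxp1, which keeps T cells quiescent, gave 0.63 (adjusted p = 0.124) from its main probe and 0.61 from another, while a further probe read 0.01 on adult array 1, -2.50 and -3.70 on the embryonic arrays and had no value on adult array 2. The Foxp1 probes therefore did not run the same way. Foxp3, the factor that defines regulatory T cells, stood at -2.35 and -0.31 in adult and -2.55 and -3.62 in embryonic spheres, a difference of -1.76 (adjusted p = 0.0951), with adult arrays further apart than adult array 1 and embryonic array 1.

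**Figure D3:**
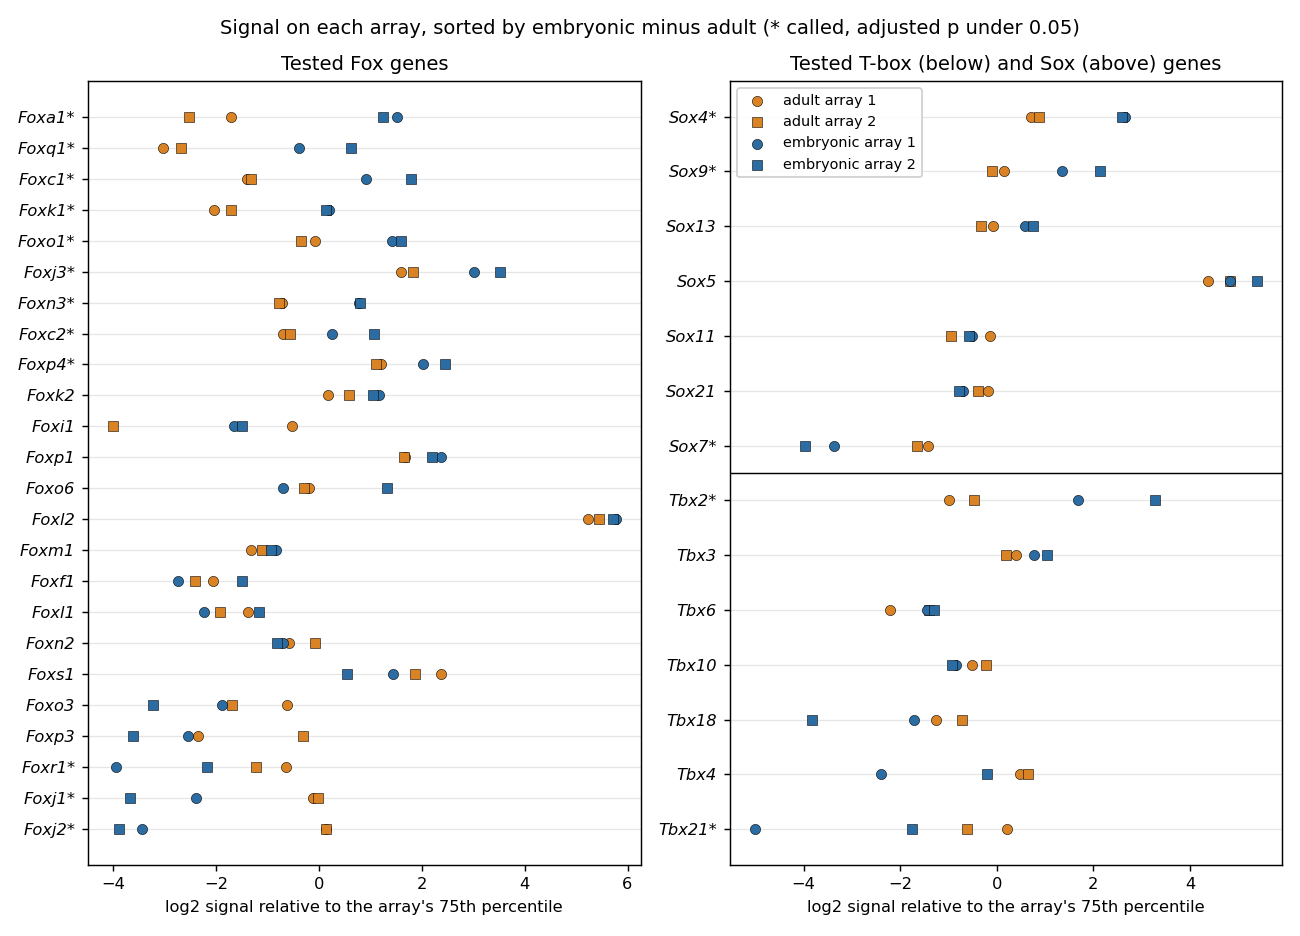
Log2 signal relative to each array's 75th percentile (x axis) of 38 tested members (y axis) on the 2 adult arrays (orange) and the 2 embryonic arrays (blue), with a star on the 17 called genes drawn. The 2 groups of points do not overlap for any starred gene, and they overlap for 7 of the 21 others.

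The genes called lower included 3 forkhead genes. Of the 5 members called lower, 4 were dim on both embryonic arrays, meaning not well above background there. So were 1720 of the 2393 genes called lower among all tested genes. The sensory receptor genes moved the same way, with 286 of 329 tested ones called lower and 275 of these dim on both embryonic arrays. Their part in the members' calls was not tested. A gene dim on both arrays of 1 group, here and below, was tested only through the other group, which favours a difference in that direction. Among the called members, Foxj2, Foxr1, Sox7 and Tbx21 were tested only through the adult arrays, and Foxq1 only through the embryonic ones. Foxj2 stood at 0.14 and 0.13 in adult and -3.43 and -3.88 in embryonic spheres. Neither embryonic signal was well above background, so it was at least 6.02-fold lower there (fitted difference -3.80, SE 0.33, adjusted p = 0.00727). Foxj1, the master regulator of motile cilia, stood at -0.11 and -0.02 in adult and -2.40 and -3.67 in embryonic spheres, a difference of -2.97 (SE 0.49, adjusted p = 0.0103) with 1 of 2 embryonic arrays detected. The adult replicates of Foxj1 and Foxj2 differed little, and the embryonic ones lay well below them. Foxr1 stood at -0.64 and -1.22 in adult and -3.94 and -2.18 in embryonic spheres, at least 2.88-fold lower (fitted difference -2.13, SE 0.63, adjusted p = 0.0365). Its call ended in 5 alternatives, among them the deposited value table, where the difference was -0.62 (adjusted p = 0.117).

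The other tested forkhead genes had no call. Foxm1, which drives genes of the G2 and M phases, gave 0.33 (adjusted p = 0.373), from -1.32 and -1.11 to -0.84 and -0.93. Foxf1 and Foxl1, hedgehog-induced factors of gut and lung mesenchyme, gave 0.11 and -0.04, each with overlapping groups. Foxs1 gave -1.12 (adjusted p = 0.0705), from 2.37 and 1.88 to 1.45 and 0.55, and Foxn2 gave -0.43. The Foxs1 groups did not overlap, and 7 of 16 alternatives called it lower. Among these were centring on the tested genes (-1.78, adjusted p = 0.0327) and the deposited value table (-1.74, adjusted p = 0.00464). Centring on all probes gave 0.0646 for Foxs1, without a call. Foxi1, the factor of ionocytes, gave 0.68, with adult arrays at -0.52 and -4.01, so its adult spread was larger than its difference. Foxl2, which maintains ovarian granulosa cells, gave 0.40 from a probe at 5.24 to 5.77 on all 4 arrays. Its other probe stood at -2.45 to -1.71 and was not tested, and which of the 2 follows the Foxl2 transcript was not tested.

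Among the Sox genes, the SoxC factor Sox4, which promotes survival of progenitors and T cell development, was called higher. It stood at 0.72 and 0.88 in adult and 2.66 and 2.59 in embryonic spheres, a difference of 1.82 (SE 0.30, adjusted p = 0.0105) or 3.54-fold. Its other tested probe gave 1.71. Sox11, of the same SoxC group, gave 0.00 (SE 0.39, adjusted p = 0.999) from the brighter probe, at -0.14 and -0.95 in adult and -0.52 and -0.57 in embryonic spheres. Its other probe stood at -3.43 and -3.36 in adult, not well above background, and at -0.96 and -0.30 in embryonic spheres, at least 5.1-fold higher (fitted difference 2.77, adjusted p = 0.00781 over all tested probes). The result for Sox11 therefore turns on the probe, and why they differ was not tested.

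Sox9, a factor of cartilage and of several epithelial progenitors, stood at 0.14 and -0.10 in adult and 1.36 and 2.14 in embryonic spheres. The difference was 1.73 (SE 0.39, adjusted p = 0.018), or 3.31-fold, and the call ended with centring on the tested genes (1.07, adjusted p = 0.0877) and without the filter. Sox7, a SoxF factor of endothelium, fell from -1.43 and -1.65 to -3.36 and -3.98. Neither embryonic signal was well above background, and the gene was at least 1.88-fold lower (fitted difference -2.13, SE 0.36, adjusted p = 0.0108). Its call ended with normexp, quantile normalisation, centring on all probes and in the deposited value table. The other SoxF genes were not tested: Sox17 was detected on adult array 1 and Sox18 on no array.

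The SoxD factors Sox5 and Sox13 lack an activation domain of their own. Sox13 stood at -0.08 and -0.33 in adult and 0.59 and 0.75 in embryonic spheres, a difference of 0.87 that missed the threshold (SE 0.31, adjusted p = 0.0594). Sox5 gave 0.50 (adjusted p = 0.273) from a probe at 4.38 to 5.39 on the 4 arrays, while its other probe stood at -5.46 to -1.68 and was detected on adult array 1 only. Which Sox5 probe follows the transcript was not tested. Sox21, a SoxB repressor, gave -0.46 (adjusted p = 0.233), with both adult values of -0.19 and -0.38 above the embryonic -0.71 and -0.78.

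Of the 7 tested T-box genes, 1 was called in each direction. Tbx2, a repressor of limb, heart and lung mesenchyme, stood at -0.98 and -0.46 in adult and 1.69 and 3.28 in embryonic spheres. The difference was 3.21 (SE 0.59, adjusted p = 0.0123), or 9.24-fold, with the embryonic arrays further apart than the adult ones. Tbx3, its closest relative, gave 0.61 (adjusted p = 0.144), from 0.40 and 0.20 to 0.78 and 1.04, with groups that did not overlap. Tbx21, also called T-bet, is the factor of type 1 helper T cells and natural killer cells. It stood at 0.20 and -0.61 in adult and -5.01 and -1.76 in embryonic spheres, not well above background on the latter. It was at least 4.76-fold lower there (fitted difference -3.18, SE 1.05, adjusted p = 0.0489), and 7 alternatives with all 4 arrays ended the call, with adjusted p of 0.0522 to 0.105.

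Tbx4, a factor of hindlimb and lung mesenchyme, gave -1.87 (SE 0.73, adjusted p = 0.0749). It stood at 0.48 and 0.65 in adult and -2.40 and -0.20 in embryonic spheres, so embryonic array 1 was far below the other 3. Tbx18, known from pericytes and the epicardium, gave -1.79 (adjusted p = 0.082), from -1.26 and -0.72 to -1.71 and -3.83. Tbx6, of the early mesoderm, gave 0.44 and Tbx10 gave -0.52 (adjusted p = 0.348 and 0.189). The Tbx6 groups overlapped, and those of Tbx4, Tbx10 and Tbx18 did not. Across all 21 tested members without a call, differences ran from -1.87 to 0.87 and 14 had groups that did not overlap, as had 65.6% of all tested genes without a call.

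Some members are neighbours in gene order, with no protein-coding gene between them in RefSeq. Tbx2 and Tbx4 are such neighbours, with 3.21 and -1.87. Foxq1, Foxf2 and Foxc1 lie in a row, and both tested genes of the 3, Foxq1 and Foxc1, were called higher. Foxc2 and Foxl1 are neighbours too, with 1.29 and -0.04, as are Tbx3 and Tbx5, of which Tbx5 was not tested. Neighbours thus had like values in 1 of these rows and unlike ones in others, and no test was made of it.

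The 35 members that were not tested had no group with both arrays detected. On no array detected were 14: Foxa3, Foxb1, Foxd1, Foxd2, Foxd3, Foxi2, Foxn4, Sox2, Sox6, Sox8, Sox18, Sox30, Tbx19 and Tbx22. Sox2, a factor of pluripotent cells and foregut epithelium, is thus not detectable here, which is a bound and not an absence. Another 14 were detected on adult array 1 only: Foxa2, Foxb2, Foxd4, Foxe1, Foxf2, Foxo4, Foxp2, Foxr2, Sox3, Sox12, Sox14, Sox15, Sox17 and Tbx5. Foxe3, Foxh1, Foxi3, Sox1, Sox10 and Tbx15 were detected on adult array 1 and embryonic array 1. Tbx20, a factor of the heart, was detected on adult arrays 1 and 2 through different probes. Of all genes with a symbol, 15.1% were detected on no array and 12.8% on adult array 1 only, against 18.9% of the 74 members for each. Adult array 1 is the array that detected the most sensory receptor genes. Its part in the 14 members detected there only was not tested.

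Sox3 and Tbx20 changed place when outlier-marked spots were kept, an alternative added after the data were seen. Sox3, a SoxB factor of brain and pituitary, then stood at 0.66 and 0.57 in adult and -5.38 and -3.18 in embryonic spheres, a fitted difference of -4.90 (SE 0.74, adjusted p = 0.00833). Tbx20 stood at 0.90 and 1.81 in adult and -5.11 and -2.79 in embryonic spheres, a fitted difference of -5.31 (SE 0.82, adjusted p = 0.00866). Both were not well above background on the embryonic arrays, and their adult 2 spots are ones that the scanner software marked. With these spots 13 of 41 members were called higher and 6 lower, with 4688 and 3038 of 14286 genes.

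Partners and known targets of the members were taken from lists that earlier results of these data had informed, and are given as counts. Of all tested genes, 36.1% were called higher and 17.5% lower, or 7.65% and 20.3% with centring on the tested genes. Whether a list departs from these shares was not tested. Of 18 tested genes that FOXO factors are known to activate, 10 were called higher and 2 lower, with a median difference of 1.35 against 0.79 over all tested genes. With centring on the tested genes, 5 were called higher and 3 lower. Sesn1, a stress-response gene, rose by 2.60. Trim63, a muscle ubiquitin ligase, gave 3.11 from a probe detected on 1 of 2 adult arrays. The tested probe of the insulin receptor gene Insr was dim on both adult arrays and at least 5.25-fold higher in embryonic spheres, while Insr was detected on adult array 1 through another probe. Bcl2l11, which promotes cell death, fell by 1.92, with 1 of 2 embryonic arrays detected, and Fbxo32, another muscle ubiquitin ligase, fell by 1.44.

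Of 15 tested mitotic genes known as FOXM1 targets, 3 were called higher (Cdc25b, Top2a and Ccnb2, by 2.32, 1.93 and 1.35) and 2 lower, with a median of 0.84. Centring on the tested genes left none of them higher, and Cdc25b and Top2a were detected on 1 of 2 adult arrays. The tested probe of Kif2c, a spindle kinesin, was dim on both embryonic arrays and at least 6.45-fold lower, though another Kif2c probe was detected on embryonic array 1. Nek2, a centrosome kinase, fell by 2.24, with 1 of 2 embryonic arrays detected. Of 11 tested genes of motile cilia, which FOXJ1 is known to activate, 1 was called higher and 4 lower, with a median of -0.36. Rsph1, a radial spoke gene, was at least 6.96-fold lower and Tekt1 at least 1.91-fold lower in embryonic spheres, and Tekt2, also of the cilium, fell by 2.58. The called gene in the other direction was the tubulin gene Tubb4b (1.30), whose call ended with centring on the tested genes. The other 6 tested cilia genes had no call. Dnah5, Dnah9 and Dnah11, also on the list of motile cilia genes, were detected on no array.

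Foxf1 and Foxl1 lie downstream of the hedgehog pathway. Of 5 tested genes of that pathway and its targets, Gli3 (1.69) and Bmp4 (1.99) were called higher. Gli1, a direct readout of the pathway, was at least 10.3-fold lower and the receptor gene Ptch1 at least 3.94-fold lower, both not well above background in embryonic spheres. Of 7 tested genes of organ mesenchyme in which Tbx4 and Tbx5 act, 6 were called higher and none lower. Their median was 1.72, against 0.79 over all tested genes, of which 36.1% were called higher. Bmp4 is counted again among these 6. Meis2 rose by 2.41 and Meis1 by 2.37, homeobox genes of limb and lung mesenchyme. Of 4 tested cartilage matrix genes that SOX9 activates, Col9a2 was called higher (1.26) and Col9a1 was at least 2.31-fold lower, and Col2a1, the defining cartilage collagen, was detected on no array. With centring on the tested genes, 4 of the 6 mesenchyme genes stayed called higher, and the calls of Gli3 and Col9a2 ended.

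The TLE family includes corepressors that bind several Fox, Sox and T-box factors. Of 6 tested Tle genes, Tle5 (1.79) and Tle1 (1.5) were called higher and Tle4 (-2.37) lower. The fit for Tle6 rests on 3 arrays since adult array 2 had no value. Tle4 was detected on 1 of 2 embryonic arrays, and Mga, below, on 1 of 2 adult ones. Of 3 further tested T-box or Sry genes, Mga rose by 2.32, and Eomes and Sry were at least 2.44-fold and 3.06-fold lower, both not well above background in embryonic spheres. With centring on the tested genes, the calls of Tle5, Tle1 and Mga ended. The plot of the lists shows each tested gene.

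**Figure D4:**
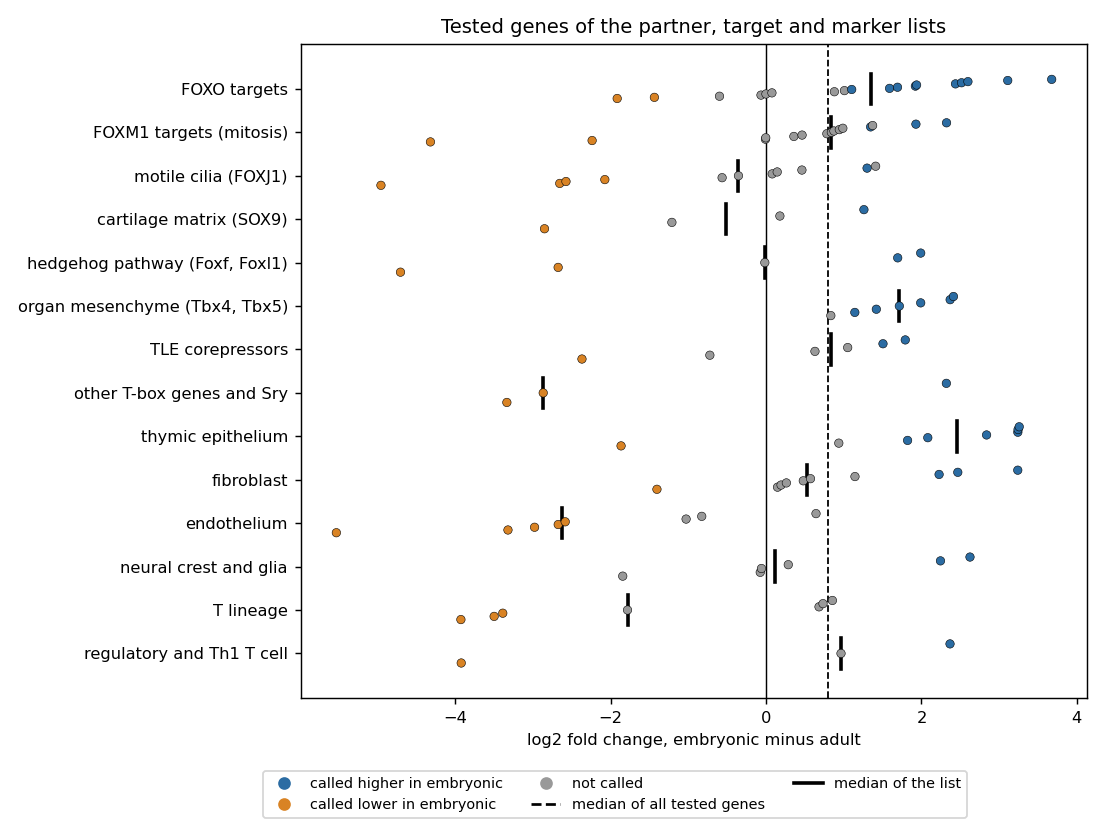
Log2 difference, embryonic minus adult (x axis), of each tested gene in 14 partner, target and marker lists (y axis), with a bar for each list's median and a dashed line for the median of all tested genes (0.79). Fitted list medians run from -2.87 (other T-box genes and Sry, or -1.29 with bounded genes at their bound) to 2.46 (thymic epithelium).

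Markers of the cell types that use these factors moved too, and their part in the members' values was not tested. For the labelled tissue, Epcam, Krt5 and Krt8 were detected on all 4 arrays, whereas Aire, Psmb11 and Ly75, markers of differentiated thymic epithelium, were detected on adult array 1 only. Of 8 tested epithelial markers, 6 were called higher and 1 (Krt14, -1.87) lower, against 36.1% and 17.5% of all tested genes. Their median was 2.46. Krt5 rose by 3.26 and the thymus-forming factors Pax1 and Pax9 by 3.24 each, the tested Pax9 probe being detected on 1 of 2 adult arrays. With centring on the tested genes, 5 of these markers were called higher. Summed over 11 epithelial markers on a linear scale, signal relative to the 75th percentile was 53.7 and 29.2 in adult and 155 and 266 in embryonic spheres. Such sums, here and below, are carried mostly by their brightest genes and are not the level of each marker. Here these were Krt5 (log2 signal of 6.08 and 7.16 in embryonic spheres) and Krt8 (5.86 and 6.36). Most of these markers moved in the direction of the 13 members called higher, as did the median of all tested genes (0.79). All 10 fibroblast markers were detected on all 4 arrays, with 3 called higher and 1 lower, and their sum was 464 and 461 in adult and 857 and 536 in embryonic spheres.

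Beside Sox7, 5 of 8 tested endothelial markers were called lower and none higher, against 17.5% and 36.1% of all tested genes. The median of the 8 was -2.63, or -1.39 with bounded genes at their bound. Of the 5, 4 were dim on both embryonic arrays, so they were tested only through the adult arrays, which favours a lower value. Esam was at least 14.4-fold lower, and for Robo4 and Cdh5 the bounds were 2.61-fold and 2.62-fold. The sum over 10 endothelial markers was 22.8 and 24.8 in adult and 19.3 and 28.8 in embryonic spheres. Its brightest tested gene was Kdr, at 3.44 and 3.89 in adult and 3.95 and 4.66 in embryonic spheres. Kdr gave 0.64 (adjusted p = 0.201), so the sum did not follow the called genes. Beside Tbx21 and Foxp3, 3 of 7 tested T lineage markers were called lower and none higher. The median of the 7 was -1.78, or -1.03 with bounded genes at their bound. Cd3g, Cd2 and Ptcra were at least 3.41-fold, 2.41-fold and 2.86-fold lower. All 3 were dim on both embryonic arrays, so they too were tested only through the adult arrays. The sum over 10 T lineage markers was 8.63 and 8.5 in adult and 9.83 and 12.0 in embryonic spheres. Its brightest tested gene was Cd4, without a call, at 2.16 and 2.11 in adult and 2.81 and 2.83 in embryonic spheres. Cd3d was detected on no array. Of 3 tested regulatory and type 1 T cell genes, Ctla4 was at least 4.01-fold lower and Ikzf2 at least 2.86-fold higher, a call that ended with centring on the tested genes, and Cxcr3, Gzmb and Il2ra were detected on no array. Of 6 tested neural crest and glial markers, Tfap2a and Mbp (2.24) were called higher and none lower, and Gfap was detected on adult array 1 only. The tested Tfap2a probe was dim on both adult arrays and at least 3.31-fold higher, while Tfap2a was detected on all 4 arrays when all its probes are counted.

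The calls differed in how far they held over the alternatives. In every alternative that keeps both adult arrays and tests the gene, 6 of the 13 members called higher kept their call (among them Foxa1, Foxc1, Foxk1, Sox4 and Tbx2), as did 2 of the 5 called lower (Foxj1 and Foxj2). Leaving out embryonic array 1 added calls for Foxo3, Foxo6, Foxp3, Foxs1 and Tbx18, and leaving out embryonic array 2 added one for Tbx4. Foxq1 lost its call with normexp only, at an adjusted p of 0.0526, and Foxo1 without the filter only. The plot of the alternatives shows the called genes by this measure.

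**Figure D5:**
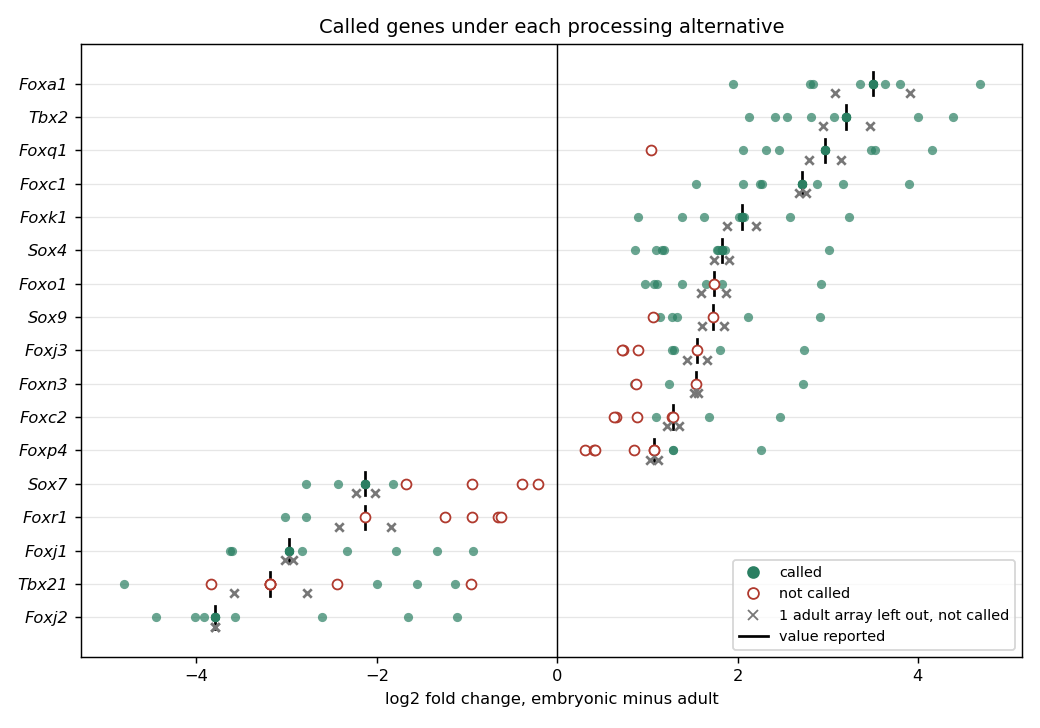
Log2 difference, embryonic minus adult (x axis), of 17 called members (y axis) under each processing alternative, filled where called, open where not, with crosses for fits without 1 adult array. Every point lies on the side of 0 that its gene was called on, and Tbx21, Foxp4, Foxc2 and Foxr1 have the most open points.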

How the data were processed

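The deposited scanner files hold intensity per spot, extracted by the authors with Agilent Feature Extraction 10.7.3.1, per the file headers and the submitters' processing notes. Per the labels' protocols, Cy3 labelling started from 25 ng of RNA. The deposited value table, also intensity by the authors on a linear scale (column medians 34.4, 35.0, 35.7 and 35.1), served as an alternative, and its centring is unknown. Groups came from the sample titles.

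From the processed intensity, log2 was taken and each array's 75th percentile (132, 66.0, 126 and 61.5) subtracted. Control spots and outlier-marked spots were left out, spots of a probe averaged, and no spot was saturated. Through unversioned RefSeq accessions, 28026 of 55681 probes (50.3%) were named. A gene was represented by its tested probe of highest mean signal, probes with a value on 4 arrays first. The fit (limma 3.58.1, lmFit and eBayes, R 4.3.3) took all 4 arrays without covariates, and p was Benjamini-Hochberg adjusted over 13667 genes. The fit was tested on simulated data. The number of arrays limits the precision.

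Normexp (offset 50) used median spot signals in place of mean ones, as the files used here hold no mean signal. The members, the 14 gene lists and the rule for named genes (all called members with their signals, the other tested members with at least their difference, and up to 3 called genes per direction in each list) were chosen with earlier results of these data known. Values of 1 tested member are not reported here, though counts include it.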

Additional observations from a re-analysis of the deposited data

How the results depend on the processing

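The main counts were 13 members higher and 5 lower, 4939 and 2393 of all tested genes, and 37 and 25 genes of the partner and target lists. Normexp gave 2 members lower, 2529 and 820 of all genes, and 9 list genes lower. Quantile normalisation gave 3 members lower, with 1965 genes lower and 2897 higher. Centring on all probes gave 26 members higher and 3 lower, 9831 genes higher and 1695 lower, and 72 list genes higher. Centring on the tested genes gave 8 members, 1046 genes and 19 list genes higher. No filter on dim probes gave 7 of 74 members higher and 3 lower, 857 and 1687 of 21151 genes, and 18 list genes higher. Detection on all 4 arrays gave 2 members, 329 genes and 5 list genes lower. The 5 members called lower in the main fit were not tested there, and Foxs1 gained a call (adjusted p = 0.0324). With 1 array left out in turn, members ranged from 0 to 14 higher and 0 to 9 lower, all genes from 0 to 5072 and 0 to 2613, and list genes from 0 to 45 and 0 to 27, with 0 by limma whenever an adult array was left out (6454 and 5530 genes had an unadjusted p under 0.05). There the lone adult array is assumed to vary like the embryonic pair. Same-numbered arrays deviated together little (r = 0.0703 over genes, 2 pairs), so the numbers are not shown to pair. The replicate block gave 12 members higher and 8 lower, with 4659 and 2375 of 13405 genes. With the block, Foxp4 lost its call (adjusted p = 0.0533) and Foxo3, Foxs1 and Tbx4 gained one (0.0273, 0.0453 and 0.0459). Each tested probe on its own gave 17 and 5 of 44 member probes, and 6041 and 2861 of all 17081 tested probes.

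Among 612 values of single members, 35 changed sign, none for a called member, and the cause was not tested. With normexp, Foxf1 gave -0.0802, Foxi1 -0.0691 and Sox11 -0.0467. With quantile normalisation, Foxl1 gave 0.79, Foxl2 -0.40, Foxp1 -0.19 and Sox5 -0.28. With centring on all probes, Foxl1 gave 1.14 (adjusted p = 0.0459), Foxn2 0.76, Foxs1 0.0646, Sox21 0.73 and Tbx10 0.66. With centring on the tested genes, Foxf1 gave -0.55, Foxl2 -0.26, Foxm1 -0.33, Foxo6 -0.11, Foxp1 -0.0313, Sox11 -0.66, Sox5 -0.15, Tbx3 -0.0493 and Tbx6 -0.21. In the deposited value table, Foxl1 gave 0.53, Foxl2 -0.48, Foxn2 0.0386, Foxp1 -0.14, Foxp3 0.0265 and Sox5 -0.30. With 1 array left out in turn, Foxf1 ranged from -0.51 to 0.73, Foxi1 from -1.06 to 2.42, Foxl1 from -0.58 to 0.49, Foxo6 from -0.47 to 1.55 and Sox11 from -0.41 to 0.41.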
